A study of Homo sapiens with 9 samples.

Results

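Ubiquitin-specific proteases and E2 ubiquitin-conjugating enzymes were followed through a SLAM-Seq experiment, in which RNA made during a pulse of 4-thiouridine (4sU) carries T>C conversions that are read at the 3′ ends of mRNAs. The genes were chosen by name, as USP or UBE2 symbols, and by 1 measured value, a mean of at least 5 CPM (reads scaled to library size, under the name the deposited table gives them) in the 3 libraries without 4sU. The table held 92 such symbols, antisense and pseudogene symbols included, among 25801 genes. Of these, 64 reached the minimum, 33 USP genes and 31 UBE2 genes, and 28 did not, 11 of them with 0 CPM in all 7 libraries. UBE2C was left out by the rule that defined the group. The members closest above the minimum were UBE2D4 at 6.41 CPM, USP42 at 6.91 CPM and USP19 at 7.16 CPM, and the genes closest below it were USP45 at 3.81 CPM, USP21 at 2.70 CPM and USP27X at 2.30 CPM. The mitochondrial USP30 had 2.23 CPM, USP20 1.54 CPM and UBE2S, an E2 of the anaphase-promoting complex, 0.942 CPM, while the ISG15 protease USP18 was listed at 0. USP11 and USP36 were not analysed here.

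All cells were MCF10A, a non-transformed human mammary epithelial line, in which JUN had been knocked out and which had been infected with vectors for a JUN-AID fusion carrying a V5 tag and for TIR1, the auxin receptor that lets indole-3-acetic acid (IAA) degrade the fusion. JUN protein in every group therefore came from the introduced vector, and per the study's methods knockout clones were grown from single cells. How many clones were used here was not given in the sources used here. The first group (no 4sU) received no label, and its labels do not say whether it received the solvent. The second group (DMSO with 4sU) received DMSO and a 1 h pulse of 100 µM 4sU. The third (IAA with 4sU) received 100 µM IAA for 1 h before the same pulse. Each group had 3 replicates, but the 3 IAA columns were identical in all 56868 rows and were counted as 1 library, which left 7 libraries. The study describes the replicates as biological, while the labels only number them, and p-values measure the spread between these libraries.

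The libraries held between 18997637 and 24014195 reads, and the members had between 104 and 7991 reads on average over the 6 libraries without IAA. All 10 epithelial markers were above 1 CPM in every library, with a summed 4074 to 5336 CPM. The lowest of them, KRT14, had 3.63 to 10.6 CPM. The 12 markers of blood, endothelium, fibroblasts, luminal hormone receptors and liver summed to 4.00 to 10.5 CPM. PTPRC, CD3E, VWF and CDH5 were at 0 throughout. COL1A1, a fibroblast marker, had 3.21 to 9.82 CPM, and it alone of the 12 was above 1 CPM in every library. JUN mRNA, which a degron that acts on the protein does not check, had 48.2, 57.6 and 45.0 CPM without 4sU, 30.2, 20.3 and 25.6 CPM with DMSO and 4sU, and 62.9 CPM with IAA and 4sU. In bulk libraries fewer cells that express a gene and less RNA per cell cannot be told apart.

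Ubiquitin is activated by an E1 enzyme, passed to the active-site cysteine of an E2, and attached by an E3 ligase to a substrate or to another ubiquitin. The E2 often sets which lysine is linked and so the kind of chain, and some E2 enzymes carry NEDD8 or ISG15 in place of ubiquitin. Ubiquitin-specific proteases, the largest family of deubiquitinases, cut ubiquitin off again and so protect substrates from the proteasome or end a signal. Epithelial cells use these enzymes in receptor sorting, DNA repair, histone modification and the turnover of short-lived regulators.

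The 3′ intervals in which conversions were counted could be placed on GRCh37 for 24 of the 64 members, by the gene symbol and the exact length of a 3′ UTR in the GENCODE annotation lifted to that build. In 21 of them the interval was at least 500 bases long, and its last 500 bases were searched on the transcript's strand. ATTTA, the core of AU-rich elements that many short-lived mRNAs carry, was found in 15 of 21 members (71.4%) and in 68.0% of 2425 placed genes of at least 5 CPM. The longer TTATTTATT, which contains ATTTA, was in 0 of 21 members and in 3.30% of these genes. TGTANATA, the core that Pumilio proteins bind, was found in 4 of 21 members (19.0%), all of them USP genes, and in 16.3% of the genes. The windows below are shown because USP42, USP53, USP4 and USP38 were among the members with the most conversions after the pulse, and USP3 and USP1 complete the 4 members with TGTANATA. Capitals mark the motif in 30 bases of the transcript's strand, read 5′ to 3′. The windows of USP42 (chr7:6201131-6201160, plus strand), USP53 (chr4:120216300-120216329, plus strand), USP3 (chr15:63886350-63886379, plus strand) and USP1 (chr1:62917307-62917336, plus strand) hold TGTANATA. Those of USP4 (chr3:49314879-49314908, minus strand) and USP38 (chr4:144144928-144144957, plus strand) hold ATTTA.
USP42: acttgccccacTGTAAATAtacagcatgta
USP53: ctcagttgagtTGTAGATAtcaaatagaaa
USP3: cattggtttagTGTACATAagtctatttag
USP1: tctgcacgatcTGTATATAgtacatcaaac
USP4: cagttcatggcgATTTAgggtagtaataca
USP38: aaaatactgtacATTTAtatatagtatttt
A match is a description of the letters only. In the promoters, from 250 bases before to 50 bases after the transcript start in RefSeq on GRCh38.p14, TGANTCA, the letters AP-1 binds and the same on both strands, was in 0 of the 51 members with an entry and in 6.83% of 7106 genes of at least 5 CPM.

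Without 4sU, T>C differences stem from sequencing errors and other sources than the label, and these set the floor for the rates. The conversion rate, the share of sequenced T positions that appear as C, is printed here in percent. The median member had 0.0620%, 0.0641% and 0.0600% in the 3 libraries without 4sU, and the median of all genes tested lay between 0.0565% and 0.0585%. USP10, which removes ubiquitin from p53 and binds the stress granule protein G3BP, stood above the other members with 0.264%, 0.399% and 0.282% without any label. With DMSO and 4sU it had 0.417%, 0.618% and 0.520%, above all libraries without 4sU. Its log2 change of 0.64 ± 0.35 (SE) did not pass the test (limma, adjusted p = 0.158). UBE2R2, an E2 that builds Lys48 chains with cullin ligases, had 0.0883%, 0.182% and 0.192% without 4sU and 0.521%, 0.553% and 0.526% with it, and its change passed (adjusted p = 0.0140).

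After 1 h of 4sU, 37 of the 64 members rose in conversion rate at an adjusted p of 0.05 and 0 fell, against 50.5% of 10508 genes tested that rose. The 37 were 18 of 33 USP genes and 19 of 31 E2 genes, and the other 27 did not pass. In 50 of the 64 (23 USP and 27 E2 genes) all 3 libraries with DMSO and 4sU lay above all 3 without 4sU, a pattern found in 63.1% of the genes tested. The members' median change was 1.10 on the scale of log2(rate + 0.0005), with the rate as a fraction, and that of all genes tested was 1.26. The members' median rate was 0.232%, 0.175% and 0.186% in the DMSO libraries with 4sU, 3.18-fold the mean without 4sU, with no overlap between the groups (exact two-sided permutation test, p = 0.1, the smallest that 3 against 3 libraries allow). The label itself adds conversions, and the median of all genes tested rose 3.93-fold, so this test shows nothing particular to the members. Without the libraries of replicate 1, 2 or 3, the count of 37 fell to 8, 13 and 10. These fits had fewer libraries, and the share of all genes that passed in them is not given here. The fall is therefore not read as a trait of the members.

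**Figure D1:**
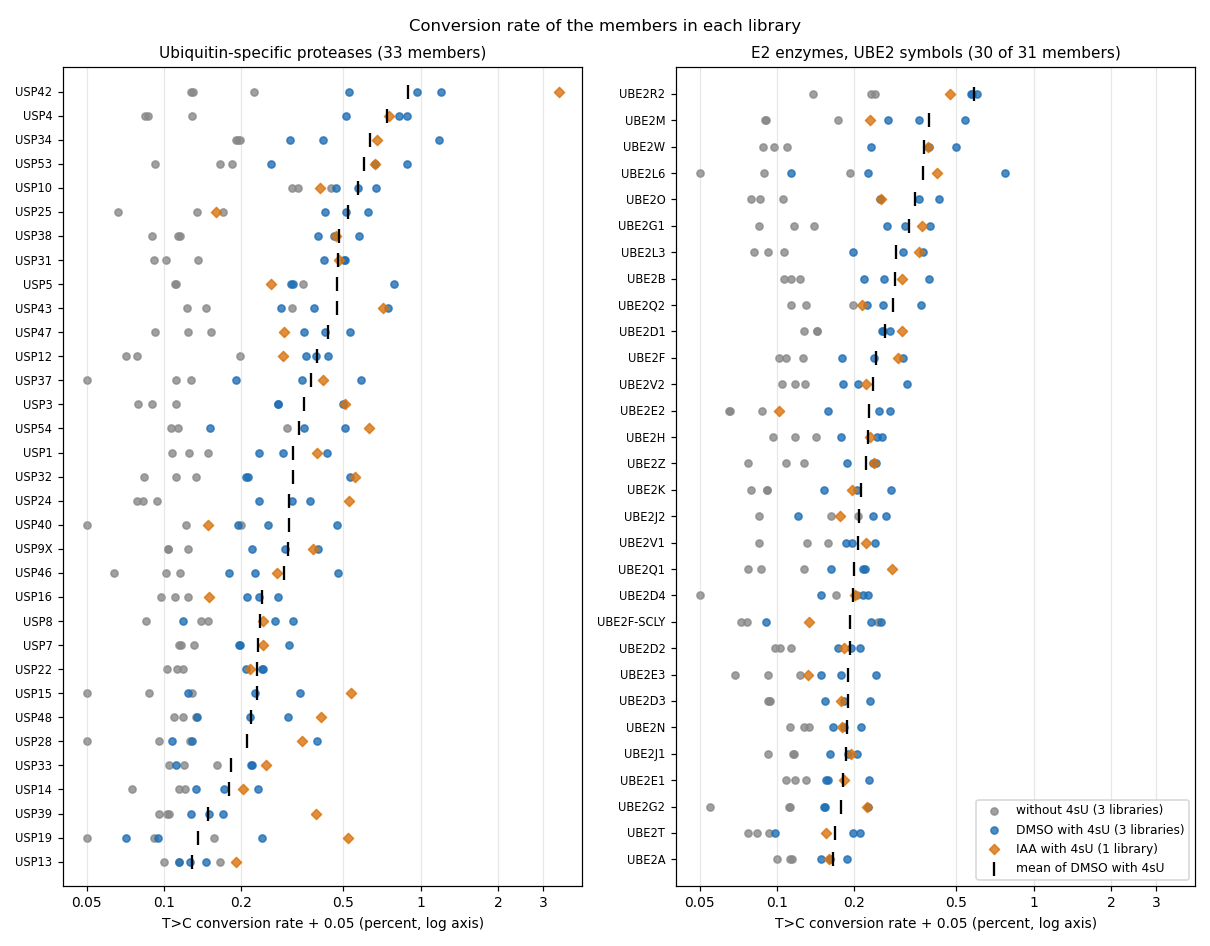
T>C conversion rate plus 0.05 in percent, on a log axis, for the 33 USP members (left) and 30 of the 31 E2 members (right), ordered by their mean with DMSO and 4sU; each point is 1 library and the black stroke marks that mean. Most blue points lie to the right of the grey ones, USP10 starts from the highest grey points, and USP42 has the farthest orange point at a rate of 3.39%.

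Most of the highest mean labelled rates were in USP genes. Of the 11 members with a mean of 0.4% or more, 10 were USP genes, while 21 of the 33 members under 0.2% were E2 genes. Among the 10, USP10, USP34, USP43 and USP5 did not pass the test, and USP43 and USP5 overlapped their unlabelled libraries. The USP genes had fewer reads, with a median of 18.04 CPM without 4sU against 63.6 CPM. The share of all genes at these rates is not given here. USP42, a protease that acts on p53 and histone H2B, had 0.174%, 0.0776% and 0.0801% without 4sU and 0.915%, 0.475% and 1.15% with DMSO and 4sU. The groups did not overlap, and the change was 2.45 ± 0.46 (SE) in log2 (adjusted p = 0.00776), on 104 reads per library on average. USP4, a relative of USP15 that acts on TGF-beta and splicing proteins, went from 0.0369%, 0.0347% and 0.0786% to 0.773%, 0.461% and 0.831%. Its change of 2.87 ± 0.37 (SE) was the largest of the members in log2 (adjusted p = 0.00259). USP53, a tight junction protein long held to lack protease activity, had 0.133%, 0.0425% and 0.115% without and 0.833%, 0.211% and 0.613% with the label (adjusted p = 0.0312).

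The members next in order differed in the spread between their labelled libraries. USP34, which acts on axin in Wnt signalling, had 0.140%, 0.145% and 0.148% without 4sU and 1.12%, 0.365% and 0.260% with it. All 3 labelled values were above the unlabelled ones, but the first was far above the others and the test did not pass (adjusted p = 0.0661). USP25, a protease of TNF receptor and interleukin signalling, had 0.0164%, 0.0841% and 0.119% without 4sU and 0.575%, 0.464% and 0.374% with it (adjusted p = 0.00956). USP38 rose from 0.0398%, 0.0633% and 0.0652% to 0.527%, 0.411% and 0.348% (adjusted p = 0.00301), and USP31 from a mean of 0.0596% to 0.425% ± 0.0490 (SD, n = 3; limma, adjusted p = 0.00314). In both the labelled libraries agreed more closely than in USP34.

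The lowest rises among members with at least 200 reads were in both families. USP13, a protease linked to autophagy, had 0.115%, 0.0647% and 0.0496% without 4sU and 0.0963%, 0.0765% and 0.0643% with it, overlapping groups with a change of 0.06 ± 0.29 (SE; adjusted p = 0.873). USP39, a splicing factor of the family without protease activity, had a mean of 0.0508% without and 0.0987% ± 0.0210 (SD, n = 3) with the label (limma, adjusted p = 0.0994). USP33 (adjusted p = 0.301), UBE2J2 (adjusted p = 0.412) and UBE2A (adjusted p = 0.0645) did not pass either, with differences of 0.0544, 0.0568 and 0.0563 percentage points. Among the members with fewer reads, USP5, USP19, USP40, USP43, USP54 and UBE2D4 did not pass.

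The E2 enzymes of the UBE2D and UBE2E sets, which work with a wide range of RING and HECT ligases, had mean labelled rates between 0.130% and 0.214%, and 5 of the 7 rose, against 50.5% of all genes tested. UBE2D3, the member with the most reads, had 284, 381 and 347 CPM without 4sU, and its rate went from 0.0425%, 0.0429% and 0.0437% to 0.181%, 0.132% and 0.103% (adjusted p = 0.0179). UBE2D2 and UBE2B had the next most, at 185, 253 and 220 CPM and at 144, 196 and 178 CPM. UBE2D2 rose to a mean of 0.143% and UBE2D1 to 0.214%, while UBE2D4, on 135 reads, had 0.121%, 0% and 0.156% without and 0.0991%, 0.177% and 0.166% with 4sU. UBE2E2 rose from 0.0228% to 0.178% ± 0.0617 (SD, n = 3; limma, adjusted p = 0.00834) and UBE2E3 to 0.140% (adjusted p = 0.0421). UBE2E1, with 0.178%, 0.105% and 0.109%, did not pass (adjusted p = 0.0946).

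Of UBE2N, UBE2V1, UBE2V2, UBE2K and UBE2R2 (described above), which act in Lys63 or Lys48 chain building, all had labelled libraries above the unlabelled ones, as had 63.1% of all genes tested, and UBE2V2, UBE2K and UBE2R2 passed the test, against 50.5% of all genes. UBE2N, the catalytic E2 for Lys63 chains, had 0.0839%, 0.0771% and 0.0626% without and 0.133%, 0.116% and 0.163% with 4sU (adjusted p = 0.0708). Its cofactor UBE2V2 rose to 0.186% ± 0.0747 (SD, n = 3; limma, adjusted p = 0.0350), and the other cofactor, UBE2V1, had a mean of 0.158% (adjusted p = 0.0781). UBE2K, which builds Lys48 chains, rose from 0.0412%, 0.0418% and 0.0294% to 0.229%, 0.154% and 0.103% (adjusted p = 0.0153). UBE2L3, the partner of Parkin and HOIP, rose from a mean of 0.0432% to 0.242% (adjusted p = 0.00869). UBE2T, the Fanconi anaemia E2, had 0.148%, 0.161% and 0.0480% with the label, all above its unlabelled libraries, and did not pass (adjusted p = 0.0797).

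Among the E2 enzymes of ubiquitin-like proteins, both that carry NEDD8 passed the test, against 50.5% of all genes tested. UBE2M rose from 0.0409%, 0.124% and 0.0402% to 0.492%, 0.307% and 0.220% (adjusted p = 0.0167), and UBE2F from a mean of 0.0624% to 0.192% (adjusted p = 0.0231). The read-through symbol UBE2F-SCLY shares its locus with UBE2F, so reads of the 2 symbols may be split, and its rate did not pass (adjusted p = 0.399). UBE2L6, the ISG15 E2, had 0.0389%, 0.142% and 0% without and 0.721%, 0.176% and 0.0636% with 4sU. These groups overlapped, and its labelled mean of 0.320% rested on the first library (adjusted p = 0.162).

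Within sets of close relatives the labelled rates lay apart in places, which was not tested. UBE2B, a RAD6 orthologue, rose to 0.239% ± 0.0896 (SD, n = 3) where UBE2A had 0.115% ± 0.0197. UBE2G1 rose to 0.276% ± 0.0635, with libraries from 0.219% to 0.345%, and UBE2G2 had 0.127% ± 0.0419, with libraries from 0.102% to 0.176%. UBE2J1, anchored in the endoplasmic reticulum, rose to 0.135% (adjusted p = 0.0332) and its relative UBE2J2 had 0.159% without passing. UBE2Q1 rose to 0.150% (adjusted p = 0.0245), and UBE2Q2 had 0.233% (adjusted p = 0.0585). USP15 had 0.175%, 0.0745% and 0.289%, below each library of USP4 and overlapping its own unlabelled values. USP12, USP46 and USP1, which share the activator UAF1, all rose, to 0.343%, 0.244% and 0.269%, where 50.5% of all genes tested rose. USP25 stood above USP28, whose labelled libraries at 0.344%, 0.0576% and 0.0785% overlapped the unlabelled ones. USP54 had 0.101%, 0.455% and 0.301%, which overlapped the labelled values of USP53 and its own without 4sU.

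Of UBE2A, UBE2B, USP22, USP16 and USP3, which act on histones, 4 rose, against 50.5% of all genes tested, and UBE2A did not pass (limma, adjusted p = 0.0645). USP22, the protease of the SAGA complex, had 0.194%, 0.192% and 0.158% with 4sU against 0.0688%, 0.0531% and 0.0619% without it (adjusted p = 0.0109). USP3, which acts on histone H2A, rose to 0.447%, 0.227% and 0.228% (adjusted p = 0.00669), and USP16, which also acts on H2A, to 0.190% (adjusted p = 0.0122). USP7, which acts on MDM2 and p53, rose to 0.257%, 0.145% and 0.148% (adjusted p = 0.0331), USP9X to 0.348%, 0.169% and 0.247% (adjusted p = 0.0112), and the cell cycle protease USP37 to 0.295%, 0.535% and 0.141% (adjusted p = 0.0293). USP14, a protease bound to the proteasome, had 0.183%, 0.0830% and 0.122% (adjusted p = 0.0853), and the endosomal USP8 had 0.0689%, 0.268% and 0.221%, overlapping its unlabelled libraries (adjusted p = 0.160).

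As families, the USP genes had the higher labelled rates. Their median was 0.320%, 0.242% and 0.228% in the DMSO libraries with 4sU and that of the E2 genes 0.194%, 0.154% and 0.163%, while all genes tested had 0.270%, 0.202% and 0.202%. The USP median exceeded the E2 median by 0.126, 0.0873 and 0.0650 percentage points with the label, and by 0.0076, -0.0017 and 0.0069 without it. The differences did not overlap between the groups (exact two-sided permutation test, p = 0.1, the smallest possible here). Without 4sU both medians lay near the floor, which keeps their difference small in advance. Nothing is read from this p-value. The E2 genes had more reads, with a median of 63.6 CPM without 4sU against 18.04 CPM for the USP genes. Among the 17 USP and 12 E2 members of 15 to 60 CPM, a range chosen after seeing the data, the differences were 0.105, 0.0746 and 0.0333 percentage points with the label and 0.0412, -0.0019 and 0.0090 without it, so that here the groups overlapped. Over all 64 members, which share libraries and depth, the rise in rate had a Spearman correlation of -0.31 with log2 CPM without 4sU and of 0.11 with the interval length, given as description.

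**Figure D2:**
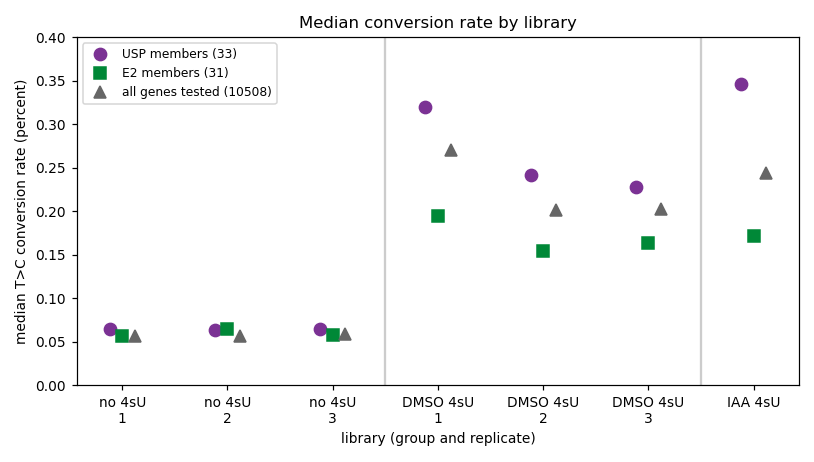
Median T>C conversion rate in percent for the 33 USP members, the 31 E2 members and all genes tested in each of the 7 libraries, grouped by treatment. The 3 medians lie together near 0.06% without 4sU, and the USP median is above the E2 median in all 4 labelled libraries.

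Total mRNA was compared between the same 6 libraries, to ask whether the pulse changed it. Here 0 of the 64 members passed limma at an adjusted p of 0.05, where 1.65% of 11078 genes tested were lower and 0 were higher. Without adjustment, 3 members were lower and 2 higher in limma at a p of 0.05, where 838 and 293 of the 11078 genes were, edgeR on recovered reads called 0, and DESeq2 called USP42 alone. The members' CPM without 4sU had chosen them, so nothing is read from this count. USP42 had 5.73, 7.10 and 7.90 CPM without 4sU and 3.48, 2.21 and 3.49 CPM with DMSO and 4sU, groups that did not overlap. Its log2 change of CPM + 1 was -1.01 ± 0.22 (SE; limma, adjusted p = 0.0616; DESeq2, adjusted p = 0.0025). USP42 is 1 of the members nearest the CPM minimum. USP53 had 19.0, 16.6 and 14.7 CPM without and 9.44, 11.7 and 13.3 CPM with 4sU, a change of -0.55 ± 0.18 (SE; limma, adjusted p = 0.243). USP24 was the other member whose 3 labelled libraries, at 20.5, 21.1 and 20.7 CPM, were below the unlabelled ones at 25.9, 24.0 and 23.3 CPM. These were 3 of 64 members, against 9.01% of the genes tested.

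In 10 members all labelled libraries were above the unlabelled ones, against 10.5% of the genes tested. UBE2Z, the E2 charged by UBA6, had 44.5, 57.5 and 73.6 CPM without 4sU and 117, 74.1 and 93.6 CPM with it (change 0.65 ± 0.24, SE; limma, adjusted p = 0.363). UBE2H, the E2 of the CTLH ligase, had 87.7, 105 and 91.4 CPM and then 135, 120 and 128 CPM (change 0.39 ± 0.15, SE; limma, adjusted p = 0.409). UBE2D2, UBE2K, UBE2N, UBE2R2, UBE2V2, USP7, USP10 and USP13 were the others, with log2 changes between 0.10 and 0.34. Across the 64 members the change in total mRNA had a Spearman correlation of -0.35 with the rise in conversion rate and of 0.47 with log2 CPM without 4sU, a value that enters the change itself.

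**Figure D3:**
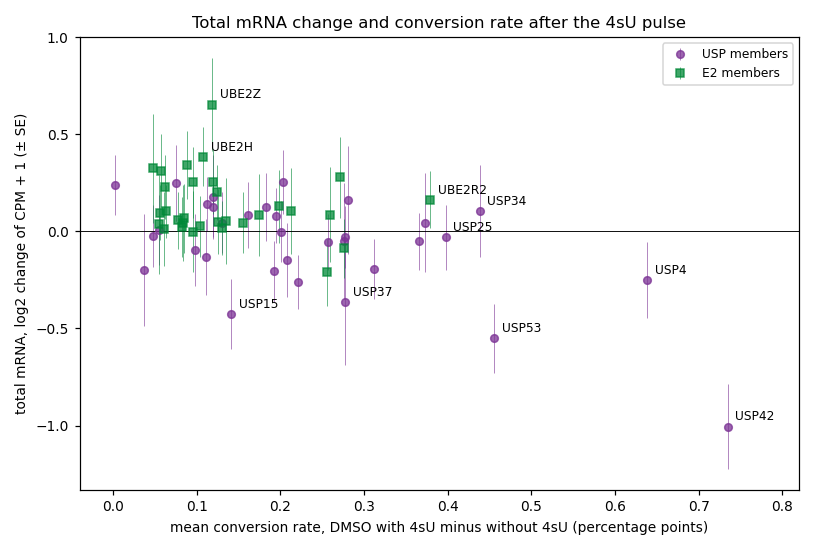
Log2 change of total mRNA (CPM + 1, with its SE as bars) against the rise in mean conversion rate in percentage points, DMSO with 4sU compared with no 4sU; each point is 1 member. USP42 and USP53 lie lowest.

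**Figure D4:**
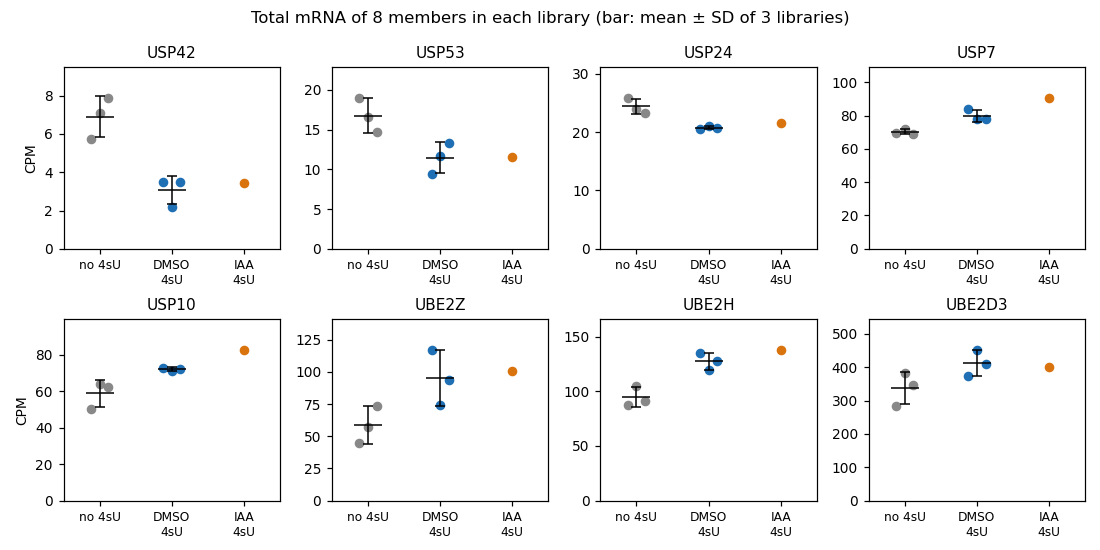
CPM of 8 members in each library without 4sU (grey), with DMSO and 4sU (blue) and with IAA and 4sU (orange), with the mean and SD of 3 libraries as a stroke and bars and axes that start at 0. USP42, USP53 and USP24 are lower with DMSO and 4sU, UBE2Z, UBE2H, USP7 and USP10 are higher, and the groups of UBE2D3 overlap.

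Whether JUN depletion changed the RNA made during the pulse was asked by comparing IAA with DMSO. With 1 IAA library there is no test, and a member was counted when its centred log2 rate lay beyond all 3 DMSO libraries on 1 side and 1 unit or more from their mean. This held for 7 of the 64 members, 4 higher and 3 lower, against 20.6% of 11332 genes, and the IAA value was outside the range at any distance in 34 members, against 49.3% of the genes. These genes include some under the members' minimum of 5 CPM, so the shares are not matched for reads. Nothing is read from the gap. Without centring the 7 were 5 higher and 2 lower. The median difference of the members was -0.06 and that of all genes -0.01 in log2. They were 6 of 33 USP genes and 1 of 31 E2 genes, against the same 20.6% of all genes.

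USP19, a protease of the endoplasmic reticulum, had 0.0452%, 0.0214% and 0.191% with DMSO and 0.468% with IAA, a difference of 1.98 on 161 reads, which became -0.40 when its intervals were averaged. USP42 had 3.39% against 0.915%, 0.475% and 1.15% (difference 1.86), on 69 reads in the IAA library. USP39 had 0.342% against 0.119%, 0.0772% and 0.0996% (1.25), and USP15 had 0.486% against 0.175%, 0.0745% and 0.289% (1.18). The rule of the count requires the IAA library to be the highest of the 4 in each of these genes. USP25 was lower, with 0.109% against 0.575%, 0.464% and 0.374% (-1.85), as were UBE2E2, with 0.0518% against 0.226%, 0.108% and 0.199% (-1.28), and USP40, with 0.0980% against 0.423%, 0.144% and 0.204% (-1.11). The IAA values of USP25 and USP40 were within their own unlabelled ranges, 0.0164% to 0.119% and 0% to 0.150%. With at least 200 reads on average 4 members were counted, and with a pseudocount of 0.002 there were 3. The share of all genes at these settings is not given here.

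**Figure D5:**
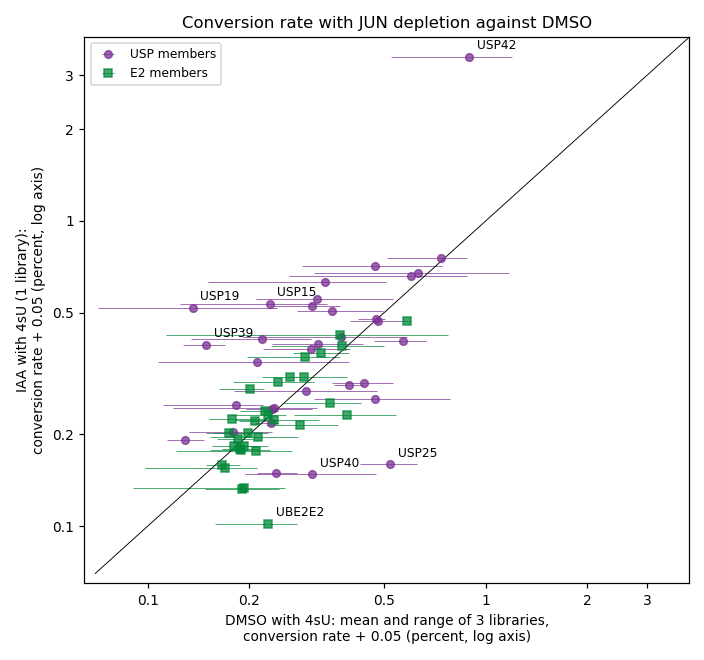
T>C conversion rate plus 0.05 in percent in the IAA library against the mean of the 3 DMSO libraries with 4sU (bars: their range), on log axes with a line of equal values. The 7 named members lie at least 1 log2 unit from the DMSO mean after centring, and USP42 is the farthest up at 3.39%.

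In total mRNA 0 of the 64 members were counted in this way after JUN depletion, against 0.145% of 11018 genes. The differences in log2(CPM + 1) ran from -0.62 to 0.38. USP54 was at the lower end, with 9.49, 8.995 and 9.81 CPM with DMSO and 6.13 CPM with IAA, below all 3 DMSO libraries. USP40 had 8.69, 8.41 and 7.77 CPM with DMSO and 11.2 CPM with IAA, above all 3, with a difference of 0.32. The IAA value was outside the range in 27 members, against 41.4% of the genes. USP42, whose rate was highest with IAA, had 3.44 CPM there and 2.21 to 3.49 CPM with DMSO.

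Other genes of the ubiquitin system, a list of 63 E1 enzymes, ubiquitin genes, further E2 enzymes and other deubiquitinases and SUMO proteases, rose in conversion rate in 27 of 55 tested, near the 50.5% of all genes, and fell in 0. All 4 ubiquitin genes rose. The largest rises were in the OTU proteases YOD1, at 6.62%, 6.35% and 4.55%, and TNFAIP3, at 4.81%, 3.90% and 4.13%. USPL1, OTUD7B and the SUMO protease SENP3 rose as well, each with a log2 change of at least 3.06. The rates of YOD1 and TNFAIP3 were above those of every member in the DMSO libraries, where the highest was the 1.15% of USP42. The same 2 genes were those of the list that fell in total mRNA, among 60 tested, TNFAIP3 by 1.90 and YOD1 by 1.11 in log2 (limma, adjusted p = 0.000881 and 0.0334). After JUN depletion 16 of 56 list genes were counted in rate, against 20.6% of all genes, and 0 of 59 in total mRNA, against 0.145%.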

How the data were processed

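SLAM-Seq libraries of MCF10A cells were analysed from 1 deposited table. The authors processed 3′-end reads with a Nextflow SLAM-Seq pipeline (hg19, per the submitters' processing notes) and deposited, per 3′ interval of a RefSeq transcript, the conversion rate, a fraction of T positions read as C without coverage or background subtraction, and a signal of reads scaled to library size. These were whole multiples of 1 read (within 0.1) in 100% of non-zero cases, which gave reads and library totals. Identifiers were matched by a RefSeq table (GRCh38.p14, names only) in 97.7% of rows, and the interval with most CPM stood for a gene. Of the columns, 0 were not used.

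Groups were compared with limma (3.58.1, R 4.3.3; trended, robust) on log2(rate + 0.0005), for genes whose rate exceeded 0 in 3 or more of 6 libraries, and on log2(CPM + 1) with TMM sizes, for genes of at least 1 CPM in at least 3 of 6, Benjamini-Hochberg adjusted over all genes tested. Per the labels, replicate numbers could pair libraries, and same-numbered deviations correlated at 0.40, 0.33 and 0.51 in total mRNA. The fits whose p-values are printed above did not use this pairing. Alternatives were other pseudocounts, filters, interval choices and scalings, edgeR (4.0.16) and DESeq2 (1.42.0) on recovered reads, a replicate block and leaving out replicates. The scripts were tested on simulated data. Genes named are the members with the highest and lowest rises, largest changes or differences, those next to the CPM minimum, the most reads, close relatives and well-known substrates, and list genes past a test. Members and lists were chosen with earlier results of these data known. Some items are not reported here. Reads without molecular identifiers are not independent molecules. Summaries used Python 3.11.15 (pandas 2.3.3, scipy 1.17.1, numpy 2.4.6).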

Additional observations from a re-analysis of the deposited data

How the results depend on the processing

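The count of members that rose in conversion rate, 37, was 35 to 45 under the other pseudocounts, filters, interval choice and scaling, and 8 to 13 without 1 replicate number. The shares of all genes under these settings, and for the other counts below, are not given here. With at least 200 reads on average, 9 members that had not passed did so: UBE2A, UBE2G2, UBE2N, UBE2Q2, UBE2T, UBE2V1, USP14, USP15 and USP34. Their adjusted p in that limma fit lay between 0.0285 and 0.0499. Replicate numbers did not pair the libraries in rate (correlations -0.0003, -0.0098 and 0.0013), and with a replicate block 28 members rose. In total mRNA the count was 0 with the block, 1 with DESeq2 and 0 to 2 without 1 replicate number, where USP42 and USP37 passed without replicate 1. The replicate block changed no call in total mRNA. The count of members apart from the DMSO range in rate after JUN depletion, 7, was 3 with a pseudocount of 0.002, 4 with at least 200 reads and 9 to 10 without 1 DMSO library. The USP19 difference turned to -0.40 with averaged intervals. The members' rise in median rate, 0.136 percentage points, was 0.185 as a mean over members and 0.133 without USP10 and UBE2R2, left out after seeing the data. The USP excess over E2 genes, 0.0929 points, was 0.0710 at 15 to 60 CPM and 0.0762 to 0.107 without 1 replicate number. The causes were not tested. The rates carry no coverage, so members of few reads have rates whose error is unknown.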

Other observations

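Several members had more than 1 3′ interval differing in length or values, 17 of the 64, and only the interval with most CPM entered the comparisons. In UBE2G1 and USP42 the other interval had 0 CPM in every library. The UBE2D3 intervals of 3035 and 3078 bases both had 0.139% with DMSO and 4sU. Their CPM was the same in every library, as when both count the same reads, so this agreement is not independent. UBE2V1 had 0.158% ± 0.0289 (SD, n = 3) in its interval of 1791 bases and 0.174% ± 0.0271 in the one of 1647 bases. USP15 had 0.180% ± 0.108 in the longer interval, at 10.5 CPM, and 0.0695% ± 0.0746 in the shorter one, at 2.89 CPM. USP19 had 0.0859% ± 0.0920 in the interval used, at 5.97 CPM, and 1.48% ± 1.56 in another at 1.83 CPM, with an SD as large as the mean. USP39 had 0.0987%, 0.0987% and 0.0999% in its 3 intervals of at least 18 CPM, whose CPM was the same or nearly so in every library. These rates are not independent either.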
